A study of Rattus norvegicus with 4 samples.

Results

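The genes described here are those of the actin cytoskeleton and of cell contraction: actins, myosins, tropomyosins, proteins that nucleate, cap, sever, bundle or link actin filaments, GTPases and kinases that steer them, and the transcription factor Srf. They were measured in RTEC11, a line of rat tracheal epithelial cells taken from transgenic rats that carry a temperature-sensitive large T antigen of simian virus 40. At 33 °C, called permissive, the antigen is active and keeps the cells dividing, whereas 39 °C is nonpermissive and inactivates it. Cultures were held at one or the other temperature for 3 days, and total RNA from 2 samples per temperature was hybridised to 1 Affymetrix rat array each, 4 arrays in all. Both groups carry the transgene, so temperature and loss of the antigen's activity cannot be told apart, and the data come from a single cell line. Of 59 genes listed by name, 52 had at least 1 probe set annotated to that gene alone, 84 probe sets among 15866 that are not controls. Actb, Myl6, Cfl1, Dstn, Actr3 and Tmsb10 were annotated only on probe sets shared with other genes, and Vil1 had no probe set in the annotation used, so these 7 were not analysed here as members. The labels do not say whether replicates were separate cultures, so the spread behind each p-value is that of 4 arrays and may be technical. In RNA from whole cultures, fewer cells of a type and less RNA per cell cannot be told apart.

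Actin exists as a soluble monomer and as a filament, and the cell's shape, adhesion and contraction depend on the balance between them. Profilin and thymosin hold monomers, the Arp2/3 complex starts branched filaments, gelsolin-type proteins sever and cap filaments, tropomyosins coat them, and myosin II pulls on them when its light chain is phosphorylated. Free actin monomer holds back some cofactors of Srf, Mrtfa among them, so that genes of actin and of contraction are themselves targets of the actin balance. Smooth muscle forms of these proteins can also be made by epithelial cells and fibroblasts in culture.

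Of the 52 genes with a probe set, 45 passed the limit for dim probe sets, which is a mean intensity of 81.1 over the 4 arrays, taken on the log scale. At 39 °C, 15 of the 45 were higher and 7 lower than at 33 °C by limma with an adjusted p under 0.05. That is 48.9% of those tested, near the 48.8% of all 7017 genes tested. Counted by probe set, 34 of the 71 tested member probe sets were called, against 47.2% of all 9520. By direction, 33.3% of the members were higher and 15.6% lower, against 22.9% and 25.9% of all genes. The median log2 change was 0.06 among the members and -0.04 among all genes, where 16 was added to each intensity before log2. Called changes of at least 2-fold were found for 3 of the 45, namely a fall of profilin 1 (Pfn1) and rises of smoothelin (Smtn) and the capping protein Capg, against 10.9% of all genes. Transgelin (Tagln) dropped further, but its mean lay under the limit and it is not among the 45. The values at 33 °C and 39 °C did not overlap in 35 of the 45 members (77.8%), and in 75.0% of all genes.

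The split between higher and lower members depended on how the arrays were scaled. On the deposited scale 12 members were higher and 9 lower, with each array centred on its median 7 were higher and 17 lower, and with the 24 probe sets of the poly-A spike-in controls as the reference 3 were higher and 27 lower. The median log2 change of the members was 0.0077, -0.14 and -0.37 under these scalings, and that of all genes tested was 0.02, -0.13 and -0.36. Median centring and spike-in scaling move every value of an array by the same amount, so the medians shifted together by design. Of called members 68.2% were higher after quantile normalization, against 46.9% of called genes. These shares were 57.1% and 52.4% on the deposited scale, and 29.2% and 36.7% with median centring. With spike-in scaling they were 10% and 19.2%. The share of rises was thus larger or smaller among members than among all genes, depending on the scaling. Smtn, Capg and Rhoc were called higher under all 4 scalings. Actn4, Cnn2, Tpm3, Flna, Pfn1, Rnd3 and Arpc1b were called lower under all 4.

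**Figure D1:**
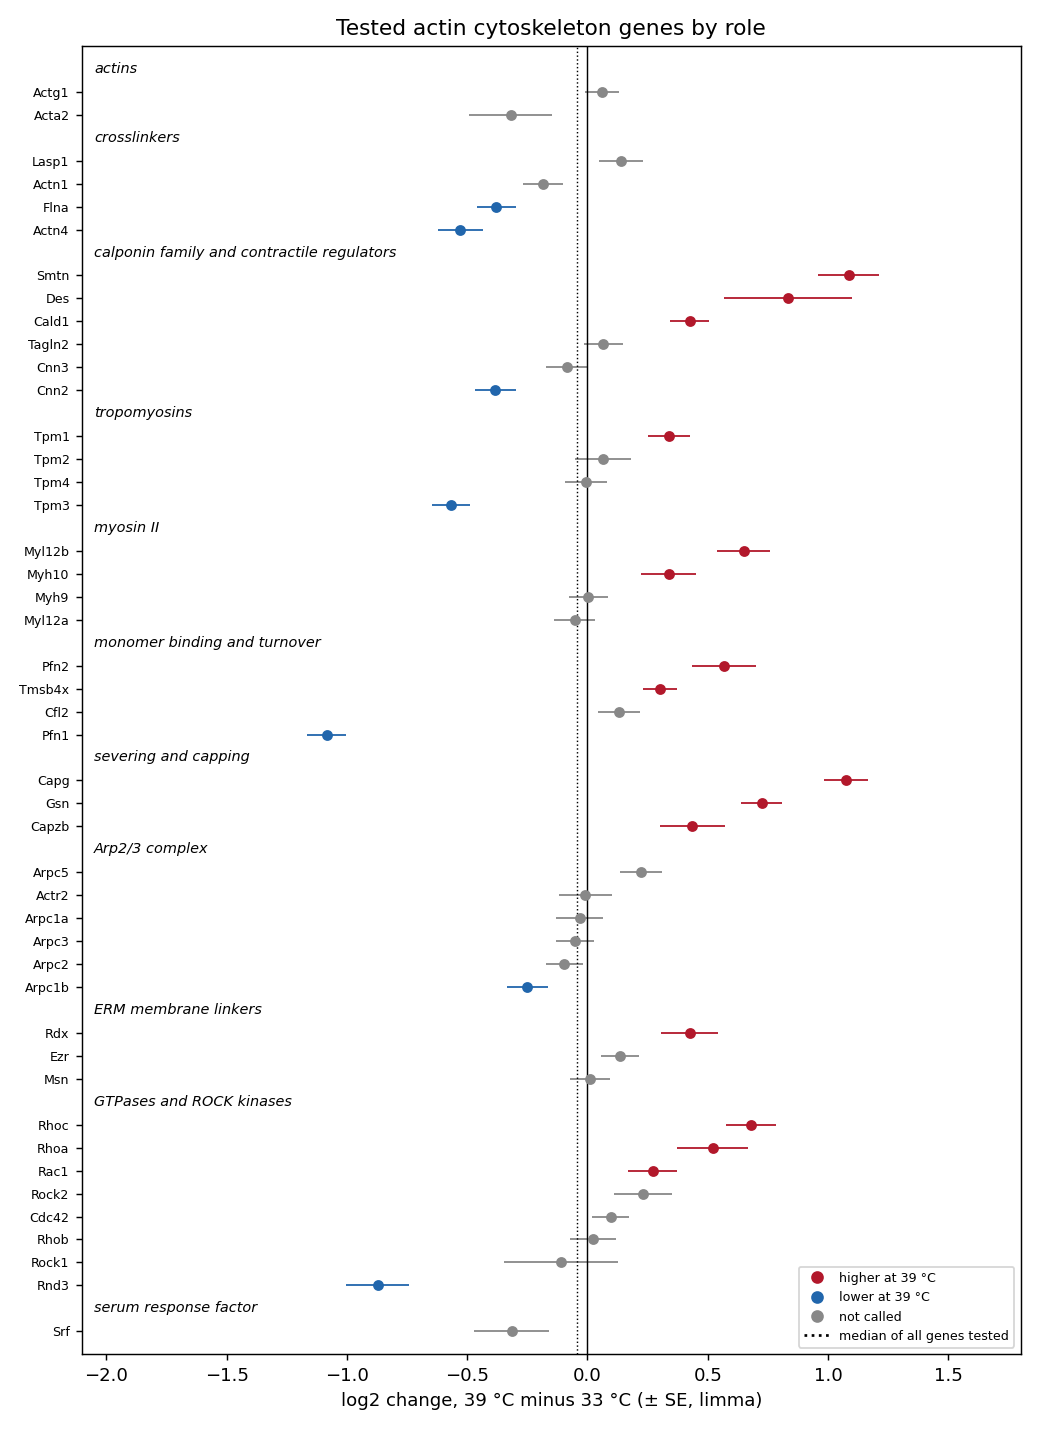
The log2 change (39 °C minus 33 °C, quantile-normalized values, with the SE from limma) of the 45 tested members, grouped by role, with calls in colour and the median of all genes tested as a dotted line. Pfn1 is lowest at -1.08, Smtn and Capg are highest at 1.09 and 1.07, and most Arp2/3 and ERM members lie near 0.

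**Figure D2:**
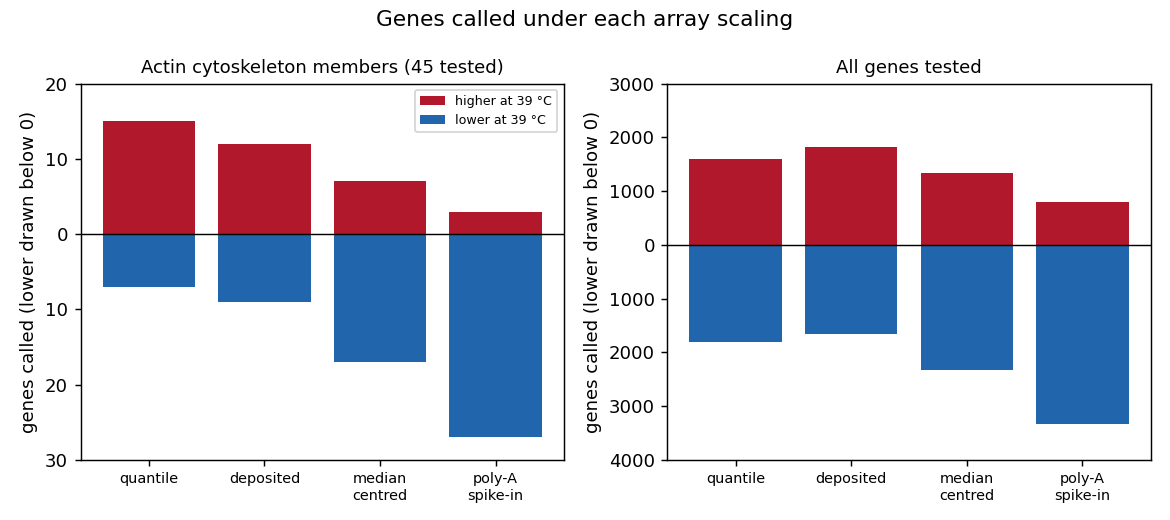
The number of genes called higher (above the line) and lower (below it) at 39 °C under 4 scalings of the arrays, for the members on the left and for all genes tested on the right. The members shift from 15 higher and 7 lower after quantile normalization to 3 higher and 27 lower with spike-in scaling, and all genes shift the same way, from 1604 and 1817 to 794 and 3339.

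Srf, a transcription factor named after the serum response, binds a DNA element known as the CArG box. Its deposited intensities were 480 and 466 at 33 °C and 468 and 347 at 39 °C. The change was -0.32 ± 0.16 (SE) on the log2 scale and did not pass (limma adjusted p 0.122). The call appeared without the first 39 °C array (-0.53) and with spike-in scaling (-0.61). A second Srf probe set had a change of 0.20 ± 0.22 (SE), also not called, and the difference between the 2 probe sets did not pass (adjusted p 0.122 over all genes' pairs of the brightest and another probe set).

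RefSeq promoter windows of the assembly GRCr8, from 250 bases before to 50 bases after the annotated start, were at hand for 50 of the 59 members, in 54 windows. Actb, Actn4, Tagln, Myl9, Myh11, Arpc1a, Capg, Rac1 and Lasp1 had none. An exact CArG box, which reads the same class of letters on both strands, was found in 5 of the 54 windows (9.26%), against 548 of all 33469 windows (1.64%). The genes were partly chosen as known Srf targets, so this share is no independent finding. Inexact boxes, boxes outside these windows and those of members without a window could not be found by this search. The 5 stretches that hold an exact match are shown with it in capitals, in the 5′ to 3′ direction of each gene:
Srf, chr9:21923975-21924044, plus strand: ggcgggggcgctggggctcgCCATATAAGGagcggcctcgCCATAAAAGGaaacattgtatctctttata
Actg1, chr10:106121012-106121061, minus strand: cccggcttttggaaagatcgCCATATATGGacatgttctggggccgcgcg
Acta1, chr19:68784259-68784308, minus strand: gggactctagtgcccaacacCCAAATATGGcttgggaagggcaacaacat
Cnn2, chr7:10370354-10370403, minus strand: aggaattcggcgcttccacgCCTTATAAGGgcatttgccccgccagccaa
Rnd3, chr3:55998611-55998660, minus strand: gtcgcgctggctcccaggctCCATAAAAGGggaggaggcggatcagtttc
The Srf window holds 2 matches. Of these 5 genes Cnn2 and Rnd3 were lower at 39 °C, Actg1 and Srf were not called, and Acta1 was too dim to test. The motif GGAATG of the TEAD factors, searched on both strands, was in 10 of the 54 windows (18.5%), against 14.2% of all windows. Its windows included those of Cald1, Myh10 and Tpm1, called higher, of Flna and Pfn1, called lower, and of Acta2, Arpc2 and Tagln2, not called. Of all genes tested 22.9% were higher and 25.9% lower, and a link between either motif and the calls was not tested.

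The actins themselves showed no call. Actg1, which encodes the cytoplasmic gamma actin, had deposited intensities of 18648 and 18610 at 33 °C and 17865 and 18158 at 39 °C. After quantile normalization its change was 0.06 ± 0.07 (SE, adjusted p 0.497), and it turned to a call of -0.20 with arrays centred on their medians and of -0.43 with spike-in scaling. Acta2, the smooth muscle alpha actin, stood at 239 and 312 at 33 °C and at 248.2 and 227.2 at 39 °C. Its change of -0.32 ± 0.17 (SE) did not pass (adjusted p 0.152), and passed with spike-in scaling (-0.57). The skeletal muscle actin Acta1 (6.0 to 43.3 over the 4 arrays) and the enteric smooth muscle actin Actg2 (34.2 to 46.2) were dim at both temperatures. Beta actin had no probe set of its own among the members. The 3 control probe sets that the array's identifiers name as rat beta-actin read 26616 and 27433 at 33 °C and 23489 and 21908 at 39 °C at the 3′ end, with changes of -0.25, -0.33 and -0.33 on the log2 scale for the 3′, 5′ and middle probe sets, without normalization. The GAPDH control probe sets changed by -0.28, -0.16 and -0.36 in the same order and scale, and those of hexokinase by -0.83, -0.74 and -0.48. A fall was thus not particular to beta-actin among these controls, none of which was part of the test. The 3′ to 5′ ratio of beta-actin, a measure of RNA integrity, was 1.18 and 1.33 at 33 °C. It was 1.38 and 1.26 at 39 °C, so it overlapped between the groups. The hexokinase ratio, at 1.75 and 1.60 against 1.51 and 1.67, also overlapped. That of the GAPDH control probe sets was 1.17 and 1.14 against 1.12 and 1.01 and did not overlap, being lower at 39 °C, and its part in the results was not tested.

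Smooth muscle type contractile genes moved in opposite directions. Transgelin (Tagln, also SM22 alpha), an actin-binding protein of smooth muscle, had intensities of 252 and 307 at 33 °C and of 7.9 and 4.1 at 39 °C. Both 39 °C arrays thus read far below both 33 °C arrays. Its mean over all 4 arrays lay under the limit for dim probe sets, which left it out of the test. Without that limit, in a fit of all 15866 probe sets of which 24.7% were called, Tagln fell by 3.83 ± 0.31 (SE) on the log2 scale (limma adjusted p 2.88e-04), a 14.2-fold drop. The size depends on the 16 added to the intensity, being -5.50 with 1 added and -2.35 with 64, while the call was made under every scaling and with each array left out in turn (adjusted p up to 0.0059).

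Myh11, the smooth muscle myosin heavy chain, went the other way, from 14.8 and 23.5 at 33 °C to 132 and 112 at 39 °C. It too was left out as dim, and without the limit its change was 1.84 ± 0.32 (SE, limma adjusted p 0.0065). This call was made under all 4 scalings and was lost without either 39 °C array (1.78 and 1.89, adjusted p 0.058 and 0.052). Desmin (Des), the muscle intermediate filament protein, had 57.7 and 81.5 at 33 °C and 179 and 124 at 39 °C. Its change was 0.83 ± 0.27 (SE, adjusted p 0.0232), but it passed the limit for dim probe sets only through its 39 °C arrays, with group means of 6.47 and 7.30 on the log2 scale, so its place among the higher members rests on that. The Des call was lost without the first 33 °C array (0.64), without the first 39 °C array (0.62), without the limit for dim probe sets and with spike-in scaling (0.58). Smoothelin (Smtn), a protein of contractile smooth muscle that associates with actin filaments, had 629 and 598 at 33 °C and 1499 and 1211 at 39 °C. It rose 2.12-fold, by 1.09 ± 0.13 (SE, adjusted p 4.18e-05), and kept this call under each of the 17 alternatives.

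Caldesmon (Cald1), which restrains myosin on actin filaments, rose by 0.42 ± 0.08 (SE, adjusted p 0.0015), from 3875 and 4083 to 4877 and 5007. A second probe set rose by 0.67 ± 0.10 (SE), a call lost with spike-in scaling (0.29), and the remaining one was dim. The Cald1 call was lost with median centring (0.16), and with spike-in scaling the value was -0.069. Of the 13 muscle-type members 6 passed the limit, of which Smtn, Cald1, Tpm1 and Des were called higher (66.7%, against 22.9% of all genes). Because the fall of Tagln itself put it under the limit, this count says nothing of members that fell. Des is in the count only through its 39 °C arrays. Tpm1 was counted by its brightest probe set, while dimmer ones were called lower, as was their mean (-0.36). The share therefore rests partly on the limit and on the choice of probe set. In the fit without the limit, and with 64 added to the intensity, 1 of the 13 was called lower, namely Tagln. With probe sets averaged per gene 1 was called lower as well, namely Tpm1. With median centring 2 of the 13 were higher, and with spike-in scaling 1 was higher and 2 lower. Among all genes 1346 were higher with median centring, and 794 were higher and 3339 lower with spike-in scaling. The calponin Cnn1 (18.5 to 71.5 over the arrays), the regulatory light chain Myl9 (21.6 to 67.3) and the myosin light chain kinase Mylk (31.5 to 64.2) were dim. Without the limit their changes were 0.60, -0.89 and 0.52, none of them called, and Myl9 was called with spike-in scaling (-1.17). Among the relatives of these genes in non-muscle cells, Cnn2 fell by 0.38 ± 0.09 (SE, adjusted p 0.0037), from 5613 and 6026 to 3937 and 4317, and kept this call under each alternative. Tagln2 (0.07) and Cnn3 (-0.09) were not called, but Cnn3 was called lower with median centring (-0.36) and spike-in scaling (-0.60), and Tagln2 with spike-in scaling (-0.41).

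**Figure D3:**
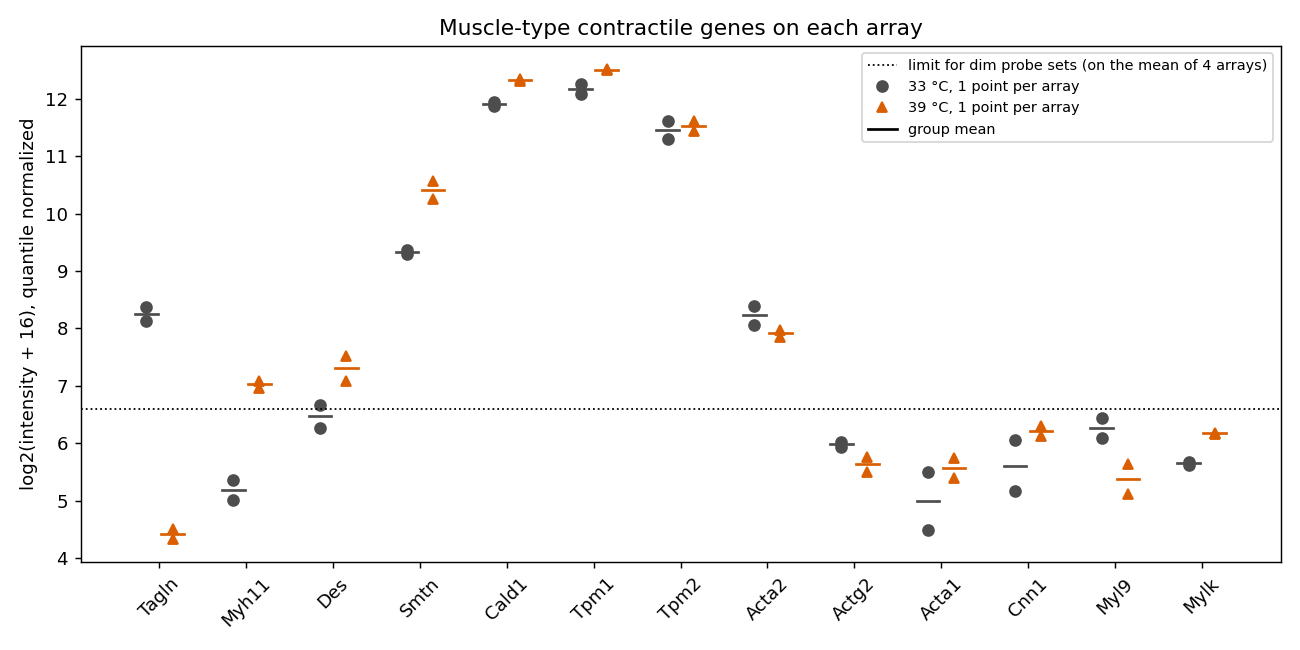
The log2 intensity (16 added, quantile normalized) of the 13 muscle-type contractile genes, 1 point per array, with group means as bars and the limit for dim probe sets as a dotted line. Tagln drops below the limit at 39 °C while Myh11 passes above it, and Smtn at 39 °C lies above its 33 °C values.

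The labelled cell type was checked by its markers. Of 15 epithelial markers with a probe set 13 were tested. At 39 °C 6 were higher (46.2%) and 2 lower (15.4%), against 22.9% and 25.9% of all genes. Epcam, Cdh1, Krt7, Krt8, Krt14, Krt18 and Krt19 were bright at both temperatures, while Krt5 (28.7 to 59.6) and Cldn7 (4.1 to 13.8) were dim. The summed intensity of the 15 was 81375 and 85468 at 33 °C and 92274 and 92052 at 39 °C. Of 11 smooth muscle markers outside the members 9 had a probe set and 2 passed the limit. These were phospholamban (Pln), a regulator of the calcium pump, at 50.7 and 20.3 against 415 and 428, and the intermediate filament protein synemin (Synm), at 149 and 131 against 528 and 536, which was called higher (1.70). Pln passed the limit only through its 39 °C arrays. The summed level of the 9 was 403 and 369 at 33 °C and 1156 and 1152 at 39 °C, and that of the other 7 without Pln and Synm was 204 and 217 against 214 and 187. Among these 7, Casq2 read 70.8 and 83.3 against 65.8 and 34.6, and Lmod1 lay between 2.6 and 11.4. Of 12 fibroblast markers 4 were tested, among them Vim (7283 to 8911) and Fn1 (4503 to 5141), which epithelial lines can also express. Fbln1 (452 to 603) was tested too and was not called. Col3a1, which passed the limit only through its 39 °C arrays, read 59.1 and 47.9 against 264 and 173, while Pdgfra (3.1 to 7.6) and Col1a2 (2.8 to 29.1) were near the floor. The fibroblast sums overlapped, at 13869 and 14740 against 12791 and 13906. Leukocyte markers summed to 880 to 1083, with 1 of 8 tested (Cd14), and endothelial markers to 85.1 to 292, with 0 of 6 tested. The part of these markers in the changes of Tagln, Myh11, Des and Smtn was not tested.

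Tropomyosins coat actin filaments and are made in many forms from 4 genes by alternative promoters and splicing. Their probe sets disagreed for Tpm1. The probe set with the highest mean (1370287_a_at) had intensities of 5036 and 4474 at 33 °C and 5501 and 5638 at 39 °C, a rise of 0.34 ± 0.09 (SE, adjusted p 0.0082). A second bright probe set, 1370288_a_at, had a change of 0.19 ± 0.09 (SE) and was not called. Probe set 1371241_x_at stood at 290 and 350 at 33 °C and at 104 and 150 at 39 °C, a fall of 1.39 ± 0.21 (SE, adjusted p 2.72e-04). Probe set 1368724_a_at, at 284 and 245 against 208 and 175, fell by 0.57 ± 0.17 (SE, adjusted p 0.0193). That call was lost on the deposited scale (-0.44), without the limit for dim probe sets, without the first 33 °C array (-0.47) and without the second 39 °C array (-0.46). The 2 dimmer tested probe sets thus went against the brightest one, and 2 more were too dim to test. In array identifiers the ending _a_at marks probes shared by transcripts of one gene, _s_at probes shared by transcripts of several genes, and _x_at probes that may also match other sequences.

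The differences between probe sets were tested directly, with limma over 1161 pairs, each of the probe set that stands for a gene and another tested probe set of it, of which 136 (11.7%) differed. Pairs among the other probe sets were not tested. Among the members 26 pairs from 17 genes were tested and 3 differed, a share near that of all pairs. Tropomyosins supplied 11 of the 26 pairs and all 3 that differed. The brightest Tpm1 probe set exceeded 1371241_x_at in change by 1.73 ± 0.25 (SE, adjusted p 0.0026) and 1368724_a_at by 0.91 ± 0.20 (SE, adjusted p 0.0186). The smaller difference was not called on the deposited scale (0.67, adjusted p 0.0622), without the first 33 °C array (0.90, 0.0805) or without the second 39 °C array (0.79, 0.103). The rise of the brightest probe set was itself lost without the second 33 °C array (0.24) or the second 39 °C array (0.33), without the intensity trend and with median centring (0.08), and its value was -0.15 with spike-in scaling. The mean over the gene's tested probe sets was called in the other direction (-0.36). No pair differed by this test when the limit for dim probe sets was dropped, where the 3 tropomyosin pairs had adjusted p of 0.114 to 0.187.

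Tpm3 was lower by all 8 of its tested probe sets. The one with the highest mean (1370339_at) had 7309 and 6951 at 33 °C and 4430 and 4547 at 39 °C, a fall of 0.57 ± 0.08 (SE, adjusted p 1.42e-04), and this call was made under each alternative. Another, 1387918_at, had 7374 and 6788 against 3133 and 3295, a change of -1.03 ± 0.08. The other bright or middling probe sets had changes from -0.83 to -0.71. All of these end in _s_at or _x_at, so they may also read other genes or sequences. Probe set 1370450_at read 224 and 232 at 33 °C and 30.1 and 40.1 at 39 °C, with a fitted change of -2.37 ± 0.26 (SE, adjusted p 2.82e-05). Its 39 °C mean of 5.63 on the log2 scale lay under the limit for dim probe sets, which it passed only through 33 °C, so the size of its change is uncertain. With the same limit, its change differed from that of the brightest probe set by 1.81 ± 0.22 (SE, adjusted p 0.0013). The call of probe set 1389846_at (-0.76) was lost on the deposited scale (-0.60), without the limit for dim probe sets, without the first 33 °C array (-0.55) or the first 39 °C array (-0.54). The 3 dim Tpm3 probe sets had changes of -0.62, -0.32 and 0.62. Tpm4 had no call by its brightest probe set (-0.0054 ± 0.088), which was called lower with median centring (-0.26) and spike-in scaling (-0.49), and a fall of 0.42 ± 0.09 (SE, adjusted p 0.0024) by the other, from 6568 and 6976 to 4973 and 4558, and the difference between them did not pass the pair test (adjusted p 0.199). Tpm2, at 3200 and 2541 against 3029 and 2707, had a change of 0.06 ± 0.12 (SE, not called).

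**Figure D4:**
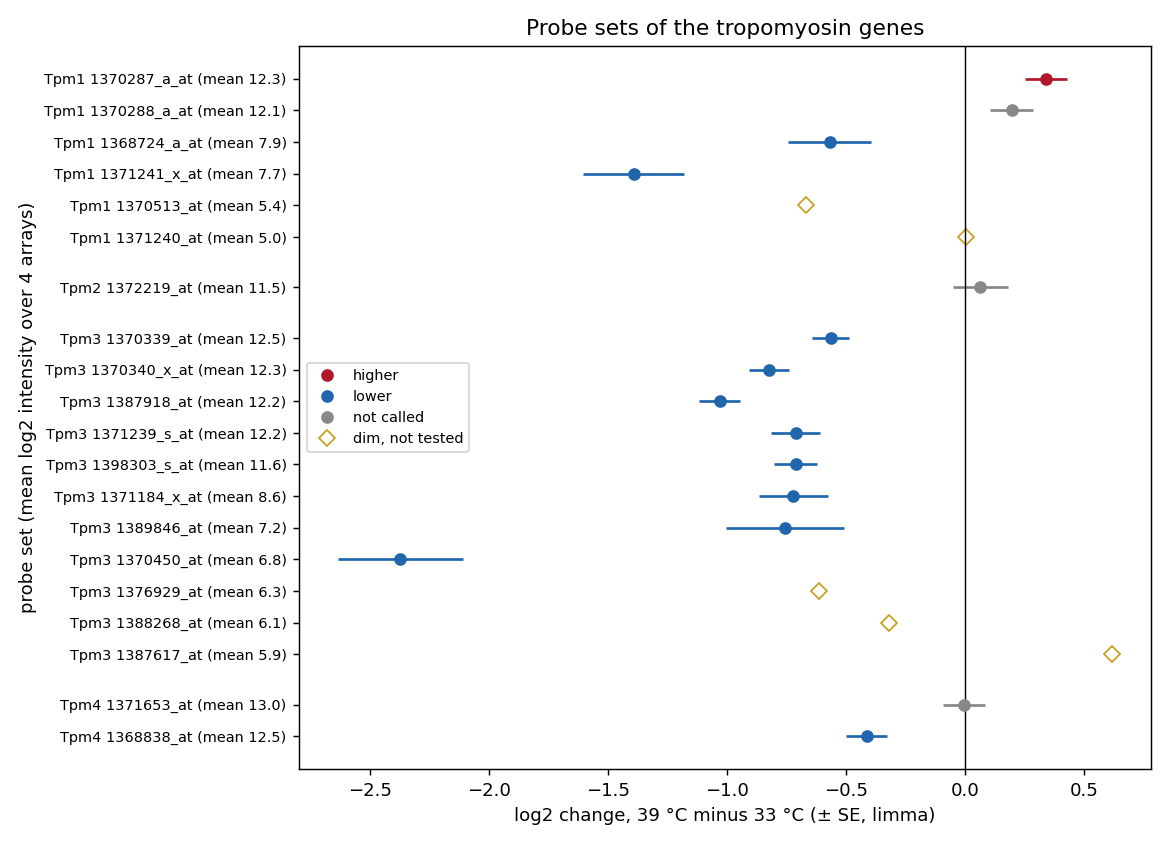
The log2 change (39 °C minus 33 °C, with the SE from limma) of each probe set of the 4 tropomyosin genes, ordered within a gene by mean log2 intensity, which is given in brackets, with dim probe sets as open diamonds and no error. All 8 tested Tpm3 probe sets lie below 0, from -2.37 to -0.57, while those of Tpm1 lie on both sides, from -1.39 to 0.34.

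In non-muscle myosin II, the motor that contracts the cell cortex, the light chain Myl12b and the heavy chain Myh10 rose, and the other 2 tested members were not called. Myl12b had intensities of 4332 and 3729 at 33 °C and 5323 and 6412 at 39 °C. It rose by 0.65 ± 0.11 (SE, adjusted p 5.42e-04), and the call was lost only with spike-in scaling (0.16). Its close relative Myl12a, at 8761 and 7870 against 7214 and 7822, was not called (-0.05 ± 0.08) except as lower with median centring (-0.29) and spike-in scaling (-0.53), and the probe sets of such near-identical genes may share signal. Myh10 rose by 0.34 ± 0.11 (SE, adjusted p 0.0290), from 1031 and 1026 to 1219 and 1431. That call was lost when either 33 °C array (0.34 and 0.33) or the second 39 °C array (0.23) was left out, without the limit for dim probe sets, without the intensity trend, with median centring (0.21) and with spike-in scaling (-0.025). Myh9, the other cortical heavy chain, was at 4737 and 4527 against 4306 and 4298, a change of 0.0041 ± 0.083, which was a call of -0.25 with median centring and of -0.49 with spike-in scaling.

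Of the proteins that hold actin monomers, the 2 profilins moved apart. Profilin 1 (Pfn1), which loads actin monomers with ATP and delivers them to growing filament ends, stood at 10586 and 10010 at 33 °C and at 4735 and 4393 at 39 °C. It fell 2.12-fold, by 1.08 ± 0.08 (SE, adjusted p 1.74e-06), and it was called lower under each alternative. Profilin 2 (Pfn2), a form best known from neurons, was at 415 and 512 at 33 °C and at 713 and 739 at 39 °C. It rose by 0.57 ± 0.13 (SE, adjusted p 0.0045), a call lost with spike-in scaling (0.26), and a second probe set had 0.22 ± 0.17 and was not called. Thymosin beta 4 (Tmsb4x), which sequesters monomers, rose by 0.30 ± 0.07 (SE, adjusted p 0.0050), from 19002 and 17535 to 20730 and 20657. It was not called on the deposited scale (0.18), with median centring (0.03), with spike-in scaling (-0.20), without the limit for dim probe sets or without the intensity trend. The cofilin Cfl2, which dismantles filaments, was not called by either probe set (0.13 and -0.22).

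All 3 tested severing and capping proteins were called higher after quantile normalization, against 22.9% of all genes. Only Capg kept that call under every scaling. Capg, a gelsolin-like protein that caps filament ends, had 3130 and 2898 at 33 °C and 5621 and 6356 at 39 °C. It rose 2.11-fold, by 1.07 ± 0.09 (SE, adjusted p 4.77e-06), under each alternative. Gelsolin (Gsn), which severs and caps filaments when calcium rises, had 2784 and 2811 at 33 °C and 4334 and 4320 at 39 °C, a rise of 0.72 ± 0.08 (SE, adjusted p 4.09e-05). That call was lost with spike-in scaling (0.25, adjusted p 0.0663). Capzb, the beta subunit of capping protein, rose by 0.44 ± 0.14 (SE, adjusted p 0.0213), from 3122 and 2460 to 4022 and 3090. The Capzb arrays overlapped on the deposited scale, and the call was lost there (0.35), without the limit for dim probe sets, without the intensity trend, with median centring (0.20), without the second 33 °C array (0.27) and without the first 39 °C array (0.24). With spike-in scaling its value was -0.036.

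Among the crosslinkers, Actn4 and Flna fell. Alpha-actinin 4 (Actn4), which bundles filaments at the cell edge, had 3584 and 3253 at 33 °C and 2290 and 2193 at 39 °C, a fall of 0.53 ± 0.09 (SE, adjusted p 7.53e-04). Filamin A (Flna), which joins filaments into a gel and anchors them to the membrane, had 10099 and 10213 at 33 °C and 6984 and 7768 at 39 °C, a fall of 0.38 ± 0.08 (SE, adjusted p 0.0026). Both were called lower under each alternative. Alpha-actinin 1 (Actn1) was not called after quantile normalization (-0.19 ± 0.08, adjusted p 0.0850) and was called lower on the deposited scale (-0.29), with median centring (-0.43) and with spike-in scaling (-0.67). Lasp1, an adaptor of actin-rich adhesions, had 0.14 ± 0.09 and was not called.

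In the Arp2/3 complex 1 of 6 tested members was called, as lower (16.7%, against 25.9% of all genes). Arpc1b fell by 0.25 ± 0.09 (SE, adjusted p 0.0322), from 7865 and 7260 to 6269 and 5620, and the call was lost without the first 33 °C array (-0.20) or the second 39 °C array (-0.16), without the limit for dim probe sets and without the intensity trend. The other 5, Arpc1a, Arpc2, Arpc3, Arpc5 and Actr2, had changes from -0.096 to 0.22. Arpc5 was the one above 0, at 4723 and 4397 against 5154 and 4809 (adjusted p 0.0550). It was called higher with the replicate number as a block (adjusted p 0.0408) and without the first 33 °C array (0.28). On the deposited scale 2 of the 6 were called lower, with median centring 4 and with spike-in scaling 5. Among all genes 1654, 2325 and 3339 were called lower under these scalings, against 1817 after quantile normalization. Of the ERM proteins, which tie the membrane to the cortex, radixin (Rdx) rose by 0.42 ± 0.12 (SE, adjusted p 0.0127), from 942 and 845 to 1130 and 1330, and by 0.87 ± 0.21 in a second probe set. The Rdx call was lost without the second 39 °C array (0.31 and 0.71 for the 2 probe sets), and that of the first probe set with median centring (0.30) and spike-in scaling (0.07). Ezrin (Ezr), at 9157 and 9722 against 10391 and 9529, had 0.14 ± 0.08 and moesin (Msn) 0.0092 ± 0.084, and neither was called.

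Among the GTPases, which switch filament assembly and contraction on and off, Rhoc rose and Rnd3 fell under each alternative. Rhoc, known for a part in cell movement, was at 932 and 914 at 33 °C and at 1453 and 1556 at 39 °C, a rise of 0.68 ± 0.10 (SE, adjusted p 2.77e-04). Rnd3, which favours the loss of stress fibres, was at 1079 and 951 at 33 °C and at 618 and 517 at 39 °C. It fell 1.83-fold, by 0.87 ± 0.13 (SE, adjusted p 2.51e-04). Rhoa, at 2658 and 3878 against 4644 and 3903, rose by 0.52 ± 0.15 (SE, adjusted p 0.0127), with a second probe set at -0.07 ± 0.11. The Rhoa call was lost without the first 33 °C array (0.27) or the first 39 °C array (0.39), with median centring (0.26) and spike-in scaling (0.02), without the limit for dim probe sets, without the intensity trend, and with the mean of its probe sets (0.23). The difference between the 2 probe sets did not pass the pair test (adjusted p 0.0828). Rac1, which drives membrane ruffling, was at 8553 and 8758 against 11079 and 8712 and passed narrowly (0.27 ± 0.10, adjusted p 0.0441). Its arrays overlapped on the deposited scale, where the call was lost (0.18), as it was without the first 33 °C array (0.27) or the first 39 °C array (0.10), with median centring, without the limit for dim probe sets, without the intensity trend and with the mean of its probe sets, and its value was -0.20 with spike-in scaling. Rhob, Cdc42, Rock1 and Rock2 had changes from -0.11 to 0.23 and were not called.

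Other genes of the same pathways, from lists of genes outside the members, also moved in both directions. Of 18 tested targets of Srf and its cofactors 4 were higher and 4 lower (median 0.01). That is 22.2% each, near the 22.9% and 25.9% of all genes. Csrp2, a smooth muscle LIM protein, was at 163 and 156 against 390 and 363 and rose by 1.03 ± 0.16 (SE). Mcl1 rose by 0.59, a call lost without the first 39 °C array (0.38) and with spike-in scaling (0.14). Pdlim7, a LIM protein of actin fibres, was at 1520 and 1685 at 33 °C and at 453 and 522 at 39 °C and fell by 1.73 ± 0.12 (SE, adjusted p 1.10e-06). The early response gene Egr1 was at 1869 and 2111 against 1299 and 1213 and fell by 0.64. Of 4 tested cofactors Mrtfa was called lower (-0.36, adjusted p 0.0439), a call that was lost with any 1 array left out (-0.44 to -0.29), on the deposited scale (-0.27), without the limit for dim probe sets and without the intensity trend.

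Of 21 tested focal adhesion genes 6 were higher and 5 lower (median 0.19). That is 28.6% and 23.8%, near the 22.9% and 25.9% of all genes. Focal adhesion kinase (Ptk2), at 789 and 774 against 1540 and 1301, rose by 0.83 ± 0.12 (SE). Tns1 rose by 0.70, a call lost without the first 39 °C array (0.50) and with spike-in scaling (0.44). Zyxin (Zyx), which gathers at adhesions under tension, was at 1400 and 1449 against 760 and 780 and fell by 0.89 ± 0.11 (SE), and Fermt2 fell by 0.50, lost without the first 39 °C array (-0.38).

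Of 22 further genes of filament nucleation and turnover 2 were higher and 7 lower (median -0.05). That is 9.09% and 31.8%, against 22.9% and 25.9% of all genes. Coronin 1C (Coro1c), which removes branches, was at 3717 and 3324 against 2114 and 1860 and fell by 0.74 ± 0.10 (SE). Spire1 fell by 0.61, lost without the second 33 °C array (-0.48) or the first 39 °C array (-0.59). Nckap1 (0.46) and Abi1 (0.41), parts of the WAVE complex that switches on Arp2/3, were called higher. The Nckap1 call was lost with median centring (0.20), and its value was -0.029 with spike-in scaling. The Abi1 call was lost with spike-in scaling (0.05). Of 20 genes of filament bundling, spectrin and unconventional myosins 10 were higher and 1 lower (median 0.34). That is 50% and 5%, against the same shares of all genes. Plastin 1 (Pls1), the bundling protein of epithelial microvilli, stood at 395 and 442 at 33 °C and at 1396 and 1429 at 39 °C, a rise of 1.66 ± 0.11 (SE, adjusted p 1.03e-06), and Myo5b, a myosin of apical vesicle traffic, rose by 0.93 ± 0.17 (SE). Epb41l2 fell by 0.57, lost without the first 33 °C array (-0.34) or the second 39 °C array (-0.53). With spike-in scaling 3 genes of this list were higher and 5 lower, where 794 of all genes were higher and 3339 lower. Pls1 (1.34) and Myo5b (0.69) were still called higher there.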

How the data were processed

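RNA of 4 samples was measured on 1 array each. Per the labels' protocols, DNase-treated total RNA was turned into biotin-labelled cRNA. The deposited values are linear intensities, 1 per probe set, which the authors had scaled, since the mean after trimming 2% at each end is 500.1 to 500.2 on each array. The sources used here do not name the summarising software. The number of arrays limits the precision. Groups and replicate numbers came from the titles.

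The members and gene lists were chosen with earlier results of these data known. Array medians of log2(intensity + 16) differed by 0.175, above a limit of 0.1, so the arrays were quantile normalized without the 57 control probe sets. Of 15866 probe sets, 12783 carried 1 gene symbol in GEO's platform annotation, 312 several (not used) and 2771 none listed. Probe sets with a mean under the 40th percentile (log2 value 6.60) were left out as dim, which left 9520. Each was tested with limma 3.58.1 in R 4.3.3 (eBayes with intensity trend), two-sided, with Benjamini-Hochberg adjustment over these. A gene was counted by its tested probe set with the highest mean, with those ending in _x_at last. Differences between that probe set and each other tested one of the gene were tested the same way, without the trend, on per-array differences. Fold changes are on the log2(intensity + 16) scale, which understates those of dim genes.

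Full values were given for called members changed by at least 1 on the log2 scale, for members whose probe sets differed, for actins, tropomyosins and Srf, and per-array values of further members were added. Of each pathway list given the 2 largest called rises and the 2 largest falls were named. A further list is not reported here. Same-numbered arrays did not deviate together (correlation of deviations -0.0060). On simulated arrays of 9520 probe sets, 200 changes were planted, all in probe sets more than 1 above the log2 limit for dim ones. Of these, 46.3% of 67 changes of 0.5, 94.0% of 67 of 1 and 100% of 66 of 2 were recovered. There were 11 unplanted among 171 calls. In the data 47.2% of probe sets were called, a far larger share than was planted. The recovered shares therefore do not carry over to the data, nor to genes near the limit. Figures used matplotlib 3.10.9.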

Additional observations from a re-analysis of the deposited data

How the results depend on the processing

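The 17 alternatives changed the scaling, the value added before log2, the limit for dim probe sets, the variance model, the choice of probe sets, the pairing and the arrays used. Those added after seeing the data concern members left out as dim. Of 22 called members, 9 kept their call and direction in all alternatives that gave a value. With 2 arrays per group each fit is limited by their number. Members higher were 15, but 7 with median centring, 3 with spike-in scaling and 9 without the intensity trend. Members lower were 7, but 17 with median centring and 27 with spike-in scaling. Leaving out 1 array gave 11 to 12 higher and 6 to 9 lower. Of the member probe sets 34 were called, and 22 with 1 probe set per gene and 21 with the probe sets of a gene averaged, which test fewer. Leaving out 1 array gave 28 to 31. Of all probe sets 4494 were called, and 3343 to 4219 with 1 array left out. The numbers share only a label: with the replicate block 4857 probe sets, 16 higher and 7 lower members and 224 differing pairs were called, against 136 pairs without it. Without the limit for dim probe sets 0 pairs differed, among members too, and with 1 array left out 66 to 158. Of the 3 member pairs 1 was left at the 60th percentile and 1 without shared probe sets (_x_at, _s_at, _a_at), and 1 to 3 with 1 array left out.

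Directions turned, with a call on one side, as follows. With median centring Actg1 was at -0.20, Myh9 at -0.25 and Msn at -0.24. With spike-in scaling Actg1 was at -0.43, Tagln2 -0.41, Cald1 -0.069, Tpm1 -0.15, Tpm2 -0.38, Myh9 -0.49, Myh10 -0.025, Cfl2 -0.31, Ezr -0.30, Msn -0.47, Capzb -0.036, Tmsb4x -0.20, Rhob -0.37, Cdc42 -0.37, Rac1 -0.20 and Lasp1 -0.36. Second probe sets of Tpm1 (-0.30), Rac1 (-0.42), Arpc2 (-0.46), Actr2 (-0.49) and Actn1 (-0.40) turned likewise. The pathway gene Nckap1 was at -0.029. With probe sets averaged per gene Tpm1 was at -0.36 and the striated myosin Myh1 at 0.38.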

Other observations

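Of 24 genes of striated muscle contraction 3 passed the limit for dim probe sets. Myh1, a fast skeletal myosin heavy chain, had deposited intensities of 1867 and 1696 at 33 °C and of 682 and 829 at 39 °C, a change of -1.24 ± 0.12 (SE, limma adjusted p 1.14e-05). The mean over its probe sets went the other way (0.38). Tnni2, a fast skeletal troponin, was at 134 and 84.9 against 62.3 and 63.5, a change of -0.77 (limma adjusted p 0.0490). It passed the limit only through its 33 °C arrays and fell under it without either of them, and its call was lost on the deposited scale, without the limit for dim probe sets, with 1 value per gene and without either 39 °C array (-0.68 and -0.84).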
